A study of Mus musculus with 37 samples.

Results

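Expression of 10 genes of the NRF2 antioxidant response was followed in primary mouse astrocytes on 37 one-colour arrays. The genes were taken by name: Nfe2l2, which encodes NRF2 itself, its inhibitor Keap1, and the target genes Slc7a11, Gclc, Gclm, Gstm1, Txnrd1, Srxn1, Nqo1 and Hmox1. The platform annotation gave them 23 of 45101 probe sets, of which 21 rose above the background level on at least 4 arrays and were tested, out of 25579 tested in all. A probe set of Keap1 (1450747_at) and one of Gstm1 (1425626_at) stayed at background on all 37 arrays and were not tested. All 10 genes therefore had at least 1 tested probe set, and the brightest one on average represents the gene below. The cells carried either a Cdca7l plasmid or the empty vector, and the study asked what Cdca7l does in astrocytes of 2 strains and both sexes. Cdca7l cells were measured on 18 arrays (129 females 4, 129 males 5, B6 females 4, B6 males 5) and vector cells on 19 (129 females 4, 129 males 5, B6 females 5, B6 males 5). The strains were 129S4/SvJae (129) and C57BL/6J (B6). All cultures were isolated from newborn pups, grown in medium with serum, electroporated with a hygromycin-resistance plasmid, and described as independent isolates. Each array carries a clone label, such as 3(3), and 15 of 22 such labels appear with both plasmids.

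NRF2 is a basic leucine zipper transcription factor that the adaptor KEAP1 binds in the cytoplasm and hands to a ubiquitin ligase. When electrophiles or oxidants modify cysteines of KEAP1, NRF2 escapes degradation, enters the nucleus and, with a small MAF partner, binds antioxidant response elements near its target genes. This control acts mainly on NRF2 protein, so the RNA of Nfe2l2 is not a measure of its activity. In the brain, astrocytes are a main site of this pathway and supply neurons with precursors of glutathione.

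Values are log2 expression as deposited, and a difference of 1 is a doubling. One array, 129 female vector 1(3), had an upper quartile of 8.36, below the 9.04 to 9.51 of the other 36. The array labelled B6 female vector 5.1(1) had Xist at 2.40 and Eif2s3y at 11.91, a male pattern. These are called the doubted arrays below. Without them the count of members called was the same in each comparison, and counts that moved are given beside their results. Cdca7l RNA ranged from 10.15 to 14.42 on the 18 arrays with its plasmid, against 4.12 to 10.43 on the 19 vector arrays, so the ranges overlapped slightly. All 10 astrocyte markers rose above background on at least 1 array, and the log2 of their summed level lay between 15.17 and 16.98 over all arrays. In these bulk cultures, fewer cells of a type and less RNA per cell cannot be told apart.

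Promoter windows from RefSeq (GRCm38.p6), which run from 250 bases before to 50 bases after a gene's start, were available for 8 of the 10 members, 11 windows in all. They were searched on both strands for TGACNNNGC, the core of the antioxidant response element, and for TGATGNAA, the core of the amino acid response element that ATF4 and its partners bind. The first motif was present in 12.4% of all 32851 windows and in 4 of the 11 member windows, those of Nfe2l2, Gclm and Srxn1 and 1 of the 3 windows of Txnrd1. The second was present in 3.97% of all windows and, among the members, in that of Slc7a11, which held it in both orientations. The windows of Gclm, Srxn1, Txnrd1 and Slc7a11 are shown because they hold a motif and these genes were among 6 that varied together between cultures, as described further on. The window of Nqo1, another of the 6, held neither motif. Capitals mark the antioxidant motif in the first 3 and the amino acid motif in Slc7a11. The windows lie at chr3:122245307-122245606 (+) for Gclm, chr2:152105274-152105573 (+) for Srxn1, chr10:82858956-82859255 (+) for Txnrd1 and chr3:50443564-50443863 (-) for Slc7a11. A match describes letters and not a bound site.
Gclm: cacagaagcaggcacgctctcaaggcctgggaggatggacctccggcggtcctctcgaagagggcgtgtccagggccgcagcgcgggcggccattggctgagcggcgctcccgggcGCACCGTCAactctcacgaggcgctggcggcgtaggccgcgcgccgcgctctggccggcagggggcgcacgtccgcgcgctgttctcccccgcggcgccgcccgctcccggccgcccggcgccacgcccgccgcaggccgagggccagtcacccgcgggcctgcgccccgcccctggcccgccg
Srxn1: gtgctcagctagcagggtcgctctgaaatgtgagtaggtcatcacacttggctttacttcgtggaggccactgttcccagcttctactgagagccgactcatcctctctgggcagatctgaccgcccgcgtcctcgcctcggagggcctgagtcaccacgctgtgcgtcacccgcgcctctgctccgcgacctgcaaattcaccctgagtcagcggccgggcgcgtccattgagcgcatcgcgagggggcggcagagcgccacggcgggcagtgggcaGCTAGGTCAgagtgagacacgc
Txnrd1: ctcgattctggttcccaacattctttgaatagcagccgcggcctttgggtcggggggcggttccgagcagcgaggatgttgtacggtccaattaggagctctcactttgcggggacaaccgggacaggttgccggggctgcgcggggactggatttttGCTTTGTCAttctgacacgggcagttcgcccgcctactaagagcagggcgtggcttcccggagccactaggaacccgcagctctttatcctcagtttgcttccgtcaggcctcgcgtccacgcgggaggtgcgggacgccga
Slc7a11: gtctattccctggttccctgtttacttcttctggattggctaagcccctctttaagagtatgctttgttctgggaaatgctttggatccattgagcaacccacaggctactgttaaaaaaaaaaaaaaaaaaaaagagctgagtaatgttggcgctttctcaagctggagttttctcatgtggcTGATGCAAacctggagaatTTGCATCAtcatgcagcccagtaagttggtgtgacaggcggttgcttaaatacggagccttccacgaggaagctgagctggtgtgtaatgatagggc

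Every representative probe set was above background on all 37 arrays, so the whole group was expressed in cultures of each strain, sex and plasmid. Nfe2l2 lay between 12.22 and 13.59, with a median of 13.14, and Keap1 between 10.70 and 11.75, with a median of 11.33. Among the targets, Gstm1, a cytosolic glutathione transferase, ranged from 13.31 to 14.29, and Txnrd1, which reduces thioredoxin, from 13.13 to 14.19. These 4 genes each varied over a range of 0.97 to 1.37 on the log2 scale. Srxn1, which repairs over-oxidised peroxiredoxins, ranged from 12.11 to 14.09. Hmox1, which opens heme to biliverdin, carbon monoxide and iron, ranged from 11.54 to 14.32, and Nqo1, a quinone reductase, from 9.41 to 12.18. Both subunits of glutamate-cysteine ligase, the first enzyme of glutathione synthesis, were measured: the catalytic subunit Gclc ranged from 10.13 to 12.80 and the modifier subunit Gclm from 10.86 to 13.11. Slc7a11, the cystine and glutamate exchanger that brings in cystine for glutathione, stood apart with a range of 7.15 on the log2 scale, from 4.24 to 11.39, and it was most variable in B6 males.

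**Figure D1:**
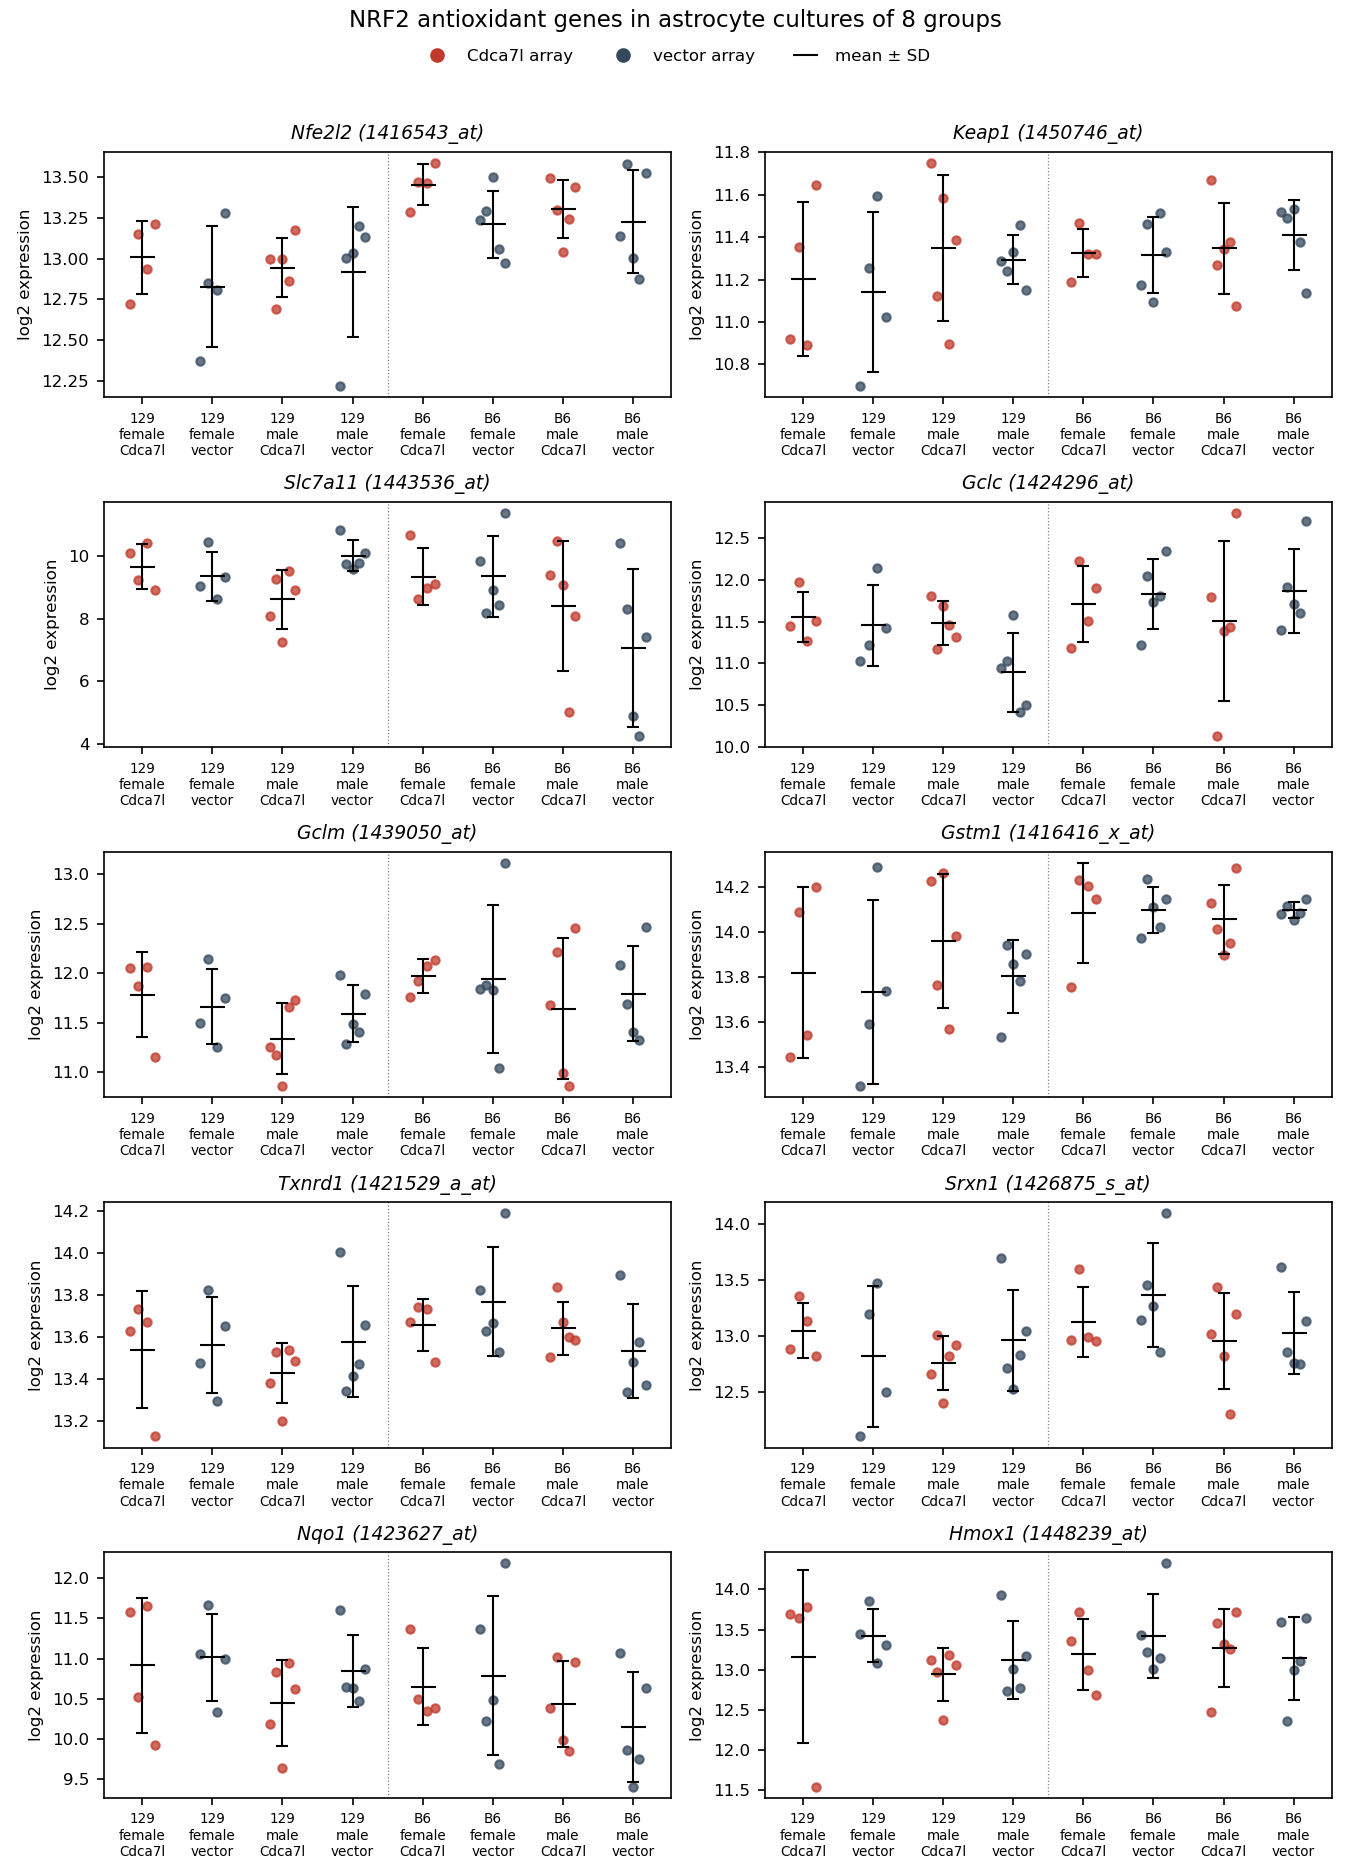
Log2 expression (y axes) of each gene's representative probe set in the 8 groups (x axes), with red points for Cdca7l arrays, dark points for vector arrays and bars for mean ± SD. Slc7a11 spread most in B6 males, its Cdca7l and vector arrays were apart in 129 males, and Nfe2l2 tended to lie lower on 129 arrays (12.22 to 13.28) than on B6 arrays (12.87 to 13.59).

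Cells that carried Cdca7l did not differ detectably from vector cells in any NRF2 gene. Averaged over the 4 strain and sex groups, 0 of the 21 member probe sets passed the limma test, at a Benjamini-Hochberg adjusted p under 0.05 over all probe sets tested, beside 2 of 25579 probe sets overall (0.00782%). None of the 21 had an unadjusted p under 0.05 either, and 9 were higher with Cdca7l. Their median difference was -0.04, beside 0.02 over all probe sets tested.

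For Nfe2l2, the Cdca7l arrays read 12.72, 13.15, 12.94 and 13.22 in 129 females and 13.00, 12.69, 13.00, 12.86 and 13.18 in 129 males, against 12.37, 12.85, 12.80 and 13.28 and 12.22, 13.01, 13.03, 13.20 and 13.13 on the matching vector arrays. In B6 cells the Cdca7l arrays read 13.29, 13.47, 13.47 and 13.59 in females and 13.50, 13.30, 13.04, 13.24 and 13.44 in males, against 13.24, 13.29, 13.50, 13.06 and 12.97 and 13.14, 13.58, 13.00, 12.87 and 13.53 with the vector. The plasmid groups overlapped in each strain and sex. The averaged difference was 0.13 ± 0.0941 (SE, log2; 95% interval -0.06 to 0.32, limma adjusted p = 0.999), which had the smallest p of all member probe sets. Of the 15 clone labels with both plasmids, 10 had more Nfe2l2 RNA with Cdca7l, with a median difference of 0.05. Keap1, its inhibitor, differed by 0.01 (95% interval -0.17 to 0.20).

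The target genes had averaged differences between -0.14 for Hmox1 (95% interval -0.51 to 0.23) and 0.07 for Slc7a11 (-0.88 to 1.01). For Txnrd1 the interval ran from -0.20 to 0.12, for Gstm1 from -0.13 to 0.22, for Srxn1 from -0.35 to 0.21 and for Nqo1 from -0.52 to 0.35. For Gclc it ran from -0.30 to 0.41 and for Gclm from -0.39 to 0.27. A doubling or a halving lay outside each of these intervals except that of Slc7a11. Within each strain and sex, no member probe set out of 21 was called (0 of 21, with 0 at unadjusted p under 0.05), beside 0 calls (0%) among all probe sets in each of these 4 comparisons. The transfected gene Cdca7l was thus not called in them either. In 129 males it read 11.83 to 12.94 with its plasmid, against 7.94 to 9.38 with the vector. These 4 comparisons can therefore miss large differences, and 0 calls in them does not show that the members were unchanged.

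Slc7a11 had the widest differences within groups, in opposite directions in males of the 2 strains. In 129 males it read 8.10, 9.29, 7.26, 9.54 and 8.91 with Cdca7l, against 10.84, 9.75, 9.61, 9.78 and 10.11 with the vector. Here every Cdca7l array lay below every vector array, while the difference of -1.40 ± 0.884 (SE) had limma adjusted p = 1. In B6 males Slc7a11 read 9.41, 10.49, 9.09, 5.02 and 8.08 with Cdca7l, against 10.42, 8.30, 4.88, 4.24 and 7.41 with the vector. These groups overlapped, with a difference of 1.37 ± 0.884 and limma adjusted p = 1. Clone 5.6(1) alone differed by 4.21 between its Cdca7l and its vector array. In 129 females the difference was 0.31 ± 0.988 and in B6 females -0.02 ± 0.938. The test of whether the Cdca7l difference, averaged over males and females, differed between strains gave -1.22 ± 0.925 (129 minus B6, limma adjusted p = 1). The opposite differences in males alone were not compared in a test.

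**Figure D2:**
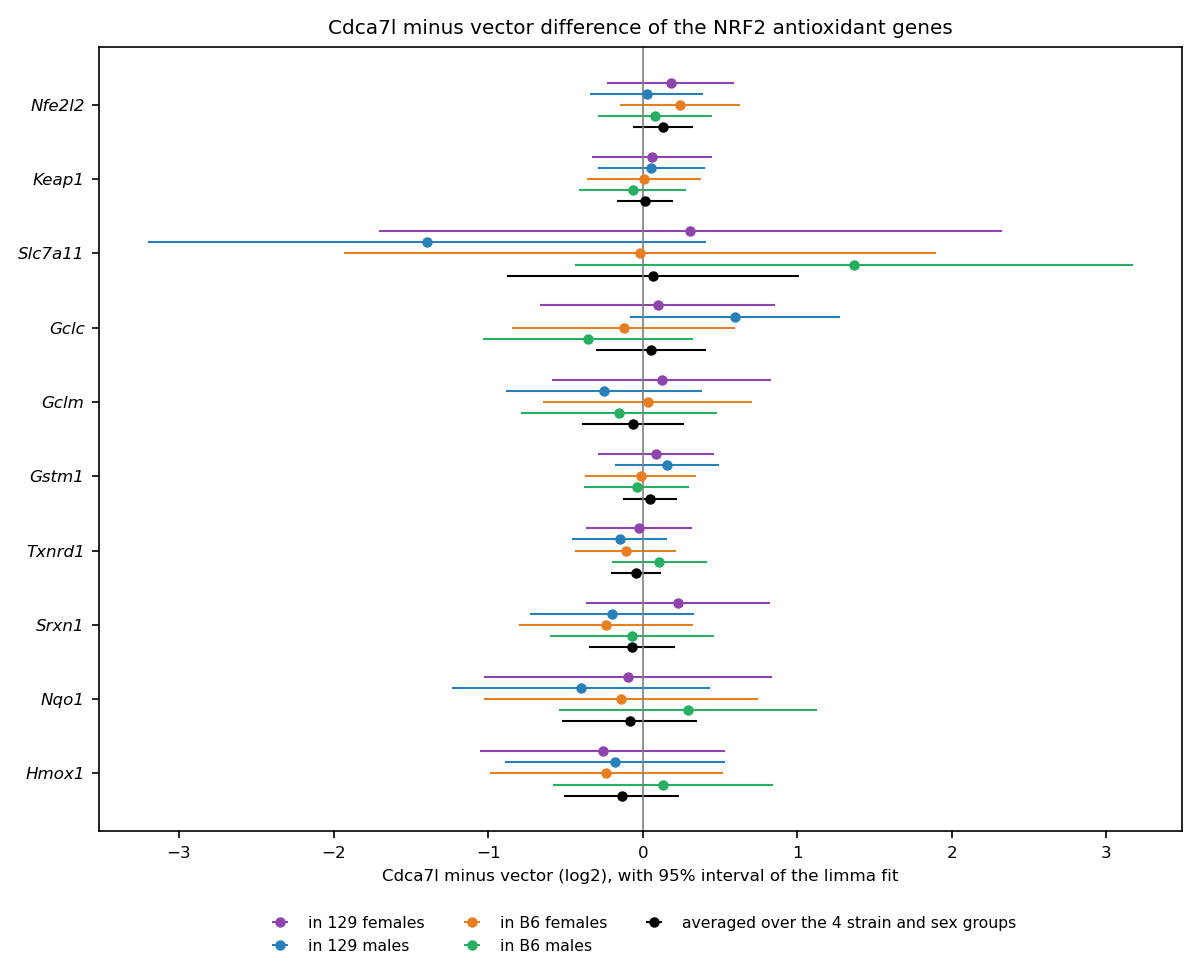
Cdca7l minus vector difference (x axis, log2) of each gene's representative probe set (y axis), as points with 95% intervals of the limma fit, in 129 females, 129 males, B6 females, B6 males and averaged over them. All 50 intervals include 0, and those of Slc7a11 are the widest.

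Astrocytes of 129 mice had less Nfe2l2 RNA than those of B6 mice. With 18 arrays of 129 and 19 of B6, the lowest, median and highest values were 12.22, 13.00 and 13.28 in 129 cells, against 12.87, 13.29 and 13.59 in B6 cells. The ranges overlapped, but the median of 129 lay near the bottom of the B6 range. The difference, averaged over sex and plasmid, was -0.37 ± 0.0941 (SE, log2; 95% interval -0.57 to -0.18, limma adjusted p = 0.00439). It passed with each of the 37 arrays left out in turn, at -0.41 to -0.33, and with clone labels as a random replicate block, at -0.37 ± 0.109 and adjusted p = 0.0191. On Cdca7l arrays alone it was -0.40 (adjusted p = 0.0423) and on vector arrays alone -0.35 (adjusted p = 0.177). The dimmer Nfe2l2 probe set (1457117_at), which ranged from 3.35 to 10.22, differed by -0.91 ± 0.59 and did not pass (adjusted p = 0.259).

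In all, 4 of the 21 member probe sets passed between strains, which is 19%, beside 25.2% of all probe sets tested, so the members were not called more often than probe sets at large. All 4 were lower in 129 cells, beside 14.6% of all probe sets that were called lower and 10.6% called higher. The median difference of the members was -0.22, beside 0.005 over all probe sets tested. Apart from Nfe2l2, the calls belonged to Gclc and to a pair of Gstm1 probe sets. With clone labels as a random replicate block only Nfe2l2 passed, beside 16.6% of all probe sets.

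Gclc read by 1455959_s_at had a lowest, median and highest value of 10.34, 11.33 and 11.84 in 129 cells, against 10.67, 11.62 and 12.58 in B6 cells. The ranges overlapped widely, and the difference was -0.41 ± 0.144 (limma adjusted p = 0.0355, and 0.057 with the random block). Its other probe set, 1424296_at, differed by -0.38 ± 0.174 and did not pass (adjusted p = 0.102). Gstm1 read by 1416416_x_at had a lowest, median and highest value of 13.31, 13.82 and 14.29 in 129 cells, against 13.75, 14.11 and 14.28 in B6 cells. The B6 arrays lay within the upper part of the 129 range, and the difference was -0.25 ± 0.0865 (limma adjusted p = 0.0304, and 0.0752 with the random block). The probe set 1448330_at gave -0.25 ± 0.0911 (adjusted p = 0.0398, and 0.0923 with the random block), and 1425627_x_at gave -0.06 ± 0.0609 and did not pass. Probe sets whose names end in _x_at can read related sequences, and Gstm1 has close paralogs, so these values may include other Gstm genes.

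The other members did not pass between strains. Slc7a11 had a lowest, median and highest value of 7.26, 9.44 and 10.84 in 129 cells, against 4.24, 8.92 and 11.39 in B6 cells, a difference of 0.87 ± 0.462 (limma adjusted p = 0.162). Its dimmer probe set 1420413_at differed by 1.04 ± 0.792 (limma adjusted p = 0.34). Nqo1 differed by 0.30 ± 0.214, Txnrd1 by -0.12 ± 0.0788, Srxn1 by -0.22 ± 0.136, Keap1 by -0.10 ± 0.0889 and Hmox1 by -0.09 ± 0.182. The probe sets of Gclm disagreed in sign, at -0.24 ± 0.163 for 1439050_at and 0.39 ± 0.259 for 1418627_at, and neither passed.

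Cell type markers also differed between strains. The log2 of the summed level of 6 fibroblast and meningeal markers ran from 12.54 to 15.76, with a median of 14.41, in 129 cells, against 11.67 to 13.91, with a median of 12.73, in B6 cells. That of the 10 astrocyte markers had a median of 16.30 in 129 cells, against 16.70 in B6 cells. All 6 fibroblast and meningeal markers and all 10 astrocyte markers rose above background on at least 1 array. The 4 ependymal markers, of which Tmem212 was at background on all arrays, summed to 4.70 to 11.34, with a median of 9.89, in 129 cells, against 7.36 to 12.06, with a median of 10.70, in B6 cells. Foxj1 (-2.03, limma adjusted p = 0.0128) and Ccdc153 (-3.02, adjusted p = 0.000515) of that list were lower in 129 cells. The neuron, oligodendrocyte and pericyte lists were mixed as well. In the neuron list Tubb3 (-2.37) and Map2 (-0.86) were lower, but Syt1 was higher (2.405, limma adjusted p = 1.92e-06). In the oligodendrocyte list Olig2 (-1.08) was lower, while Olig1 (-0.81), Pdgfra (1.09) and Mbp (0.79) did not pass. In the pericyte list Rgs5 (-2.11) was lower, while Acta2 (0.10), Tagln (0.16) and Cnn1 (0.81) did not pass. The summed lists of oligodendrocyte lineage (7 of 8 markers measured), neurons and pericytes had medians of 12.13, 13.81 and 15.09 in 129 cells, against 12.60, 13.81 and 15.03 in B6 cells. Rbfox3 of the neuron list and Myh11 of the pericyte list were at background on all arrays. The part of these cell types in the strain differences of Nfe2l2, Gclc and Gstm1 was not tested.

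**Figure D3:**
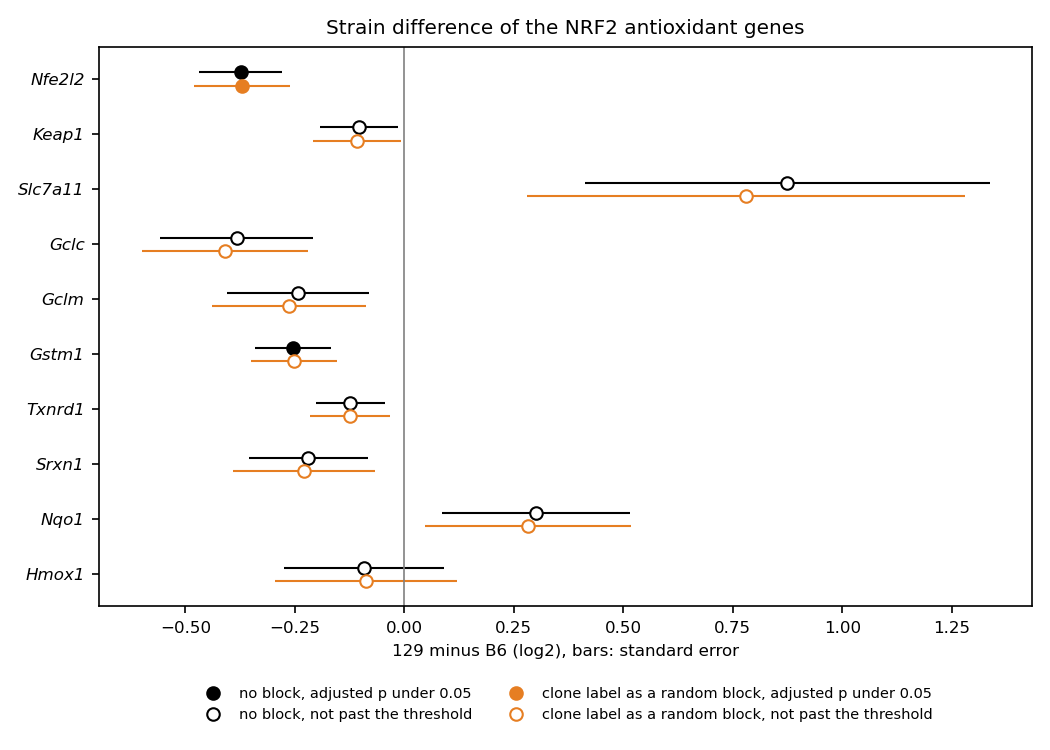
129 minus B6 difference (x axis, log2) of each gene's representative probe set (y axis), with bars for the standard error, without a block (black) and with the clone label as a random block (orange), and filled points for adjusted p under 0.05. Nfe2l2 is filled in both fits, Gstm1 without the block, and Slc7a11 and Nqo1 lie to the right of 0.

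Male and female astrocytes did not differ in an NRF2 gene past the threshold. Of the 21 member probe sets, 0 passed, beside 0.321% of all probe sets (0.27% higher and 0.0508% lower in males), and 3 (14.3%) had an unadjusted p under 0.05, beside 18.1% of all probe sets. These belonged to Slc7a11 (1420413_at, -1.92 ± 0.792), Gclc (1455959_s_at, -0.32 ± 0.144) and Srxn1 (1451680_at, -0.47 ± 0.205), and were lower in males, with limma adjusted p = 0.209, 0.239 and 0.237. The count over all probe sets was 82, and with single arrays left out it ran from 35, without the 129 female Cdca7l array 4(1), to 947, without the 129 female Cdca7l array 1(3), while the members' count was 0 in each of these settings. Of all 21, 18 had a negative and 3 a positive difference, with a median of -0.18, beside 0.01 over all probe sets tested. The summed astrocyte markers had a median of 16.53 in males, against 16.32 in females. Tests of whether the Cdca7l difference differed between strains or sexes, and of whether the strain difference differed between sexes, called 0 of 21 members each, beside 0% of all probe sets. At an unadjusted p under 0.05 there were 0 members in each, beside 1.68%, 0.719% and 15.3% of all probe sets. The last of these 3 comparisons had a median of 0.13 over all probe sets, which quantile normalization moved to -0.01.

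Between cultures of the same group, 6 of the target genes varied together. Deviations from the group means were averaged within each of the 22 clone labels, and the 45 pairs of members were correlated over them. Some labels share the number before the bracket, such as 3(1), 3(2) and 3(3) in 129 males, and the bracket is not explained. Such labels were taken as separate here but may be related. A permutation test (two-sided, 100000 resamples, Benjamini-Hochberg over the 45 pairs) called 16 pairs, 14 of them positive, and the median r over all pairs was 0.17. The test shuffled values over all 22 labels, across groups, and labels differ in their number of arrays. Spread also differed by group: Slc7a11 had an SD of 2.53 on B6 male vector arrays and 0.494 on 129 male vector arrays. The permutation p-values are therefore approximate. Those 14 positive calls included 13 among the 15 pairs of Gclm, Nqo1, Txnrd1, Hmox1, Slc7a11 and Srxn1, and the other two pairs of this set, Slc7a11 with Hmox1 (r = 0.31) and Srxn1 with Hmox1 (r = 0.47), had positive r without passing. Each of the 16 called pairs had the same sign of r over the 10 clone labels of 129 and over the 12 of B6. The 6 genes were picked from these same calls. The share of pairs that would pass among genes at large is not given, so it cannot be told whether 16 of 45 is particular to the members.

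The closest relation was that of Gclm and Nqo1, with Pearson's r = 0.86 (adjusted permutation p = 0.00045) and Spearman's rho = 0.83 (adjusted permutation p = 0.0003). Within 129 labels r was 0.87 and within B6 labels 0.87. Without the 2 labels farthest from the median of Gclm it was 0.75. Txnrd1 and Hmox1 had r = 0.86 and rho = 0.84 (adjusted permutation p = 0.00045 and 0.0003), and 0.77 without the 2 farthest labels. Nqo1 also followed Txnrd1 (r = 0.79, rho = 0.72), Hmox1 (r = 0.75, rho = 0.74) and Slc7a11 (r = 0.74, rho = 0.81), and these held at r of 0.66, 0.71 and 0.80 without the 2 farthest labels. The adjusted permutation p for r was 0.00045, 0.00112 and 0.00112 for these 3 pairs, and for rho 0.00216, 0.00202 and 0.0003.

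The weakest called relation within the set was that of Slc7a11 and Txnrd1 (r = 0.51, adjusted permutation p = 0.0463; rho = 0.45, adjusted p = 0.098), which passed in 5 of the 22 settings that left out 1 label. Srxn1 was tied less firmly to the others: its r with Nqo1 was 0.63 (adjusted permutation p = 0.00697; rho = 0.51, adjusted p = 0.0575), and 0.38 without the 2 farthest labels. Within 129 labels that r was 0.19, against 0.80 within B6 labels. By Spearman's rho 12 of the 45 pairs passed, 10 of them among the 16. The B6 female label 2.1(1) lay farthest out for Nqo1, Gclm, Srxn1 and Txnrd1, with deviations of 2.03 for Slc7a11, 1.39 for Nqo1, 1.17 for Gclm, 0.90 for Hmox1, 0.73 for Srxn1 and 0.42 for Txnrd1. Slc7a11 was farther out in the B6 male labels 2(2), at -3.10, and 4(3), at 2.72, and Hmox1 in the 129 female label 1(3), at -0.98. Without the B6 female label 2.1(1), Srxn1 no longer passed with Nqo1 or Txnrd1 (adjusted permutation p = 0.0628 and 0.0783) nor Slc7a11 with Txnrd1 (0.138). Gclm still passed with Nqo1 without that label (adjusted permutation p = 0.00045).

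No relation of Nfe2l2 itself with its target genes passed by Pearson's r, while by Spearman's rho that with Gstm1 did (rho = 0.58, adjusted permutation p = 0.0219; r = 0.48, adjusted p = 0.0562). Its r with the 6 genes ran from -0.47 for Hmox1 to 0.08 for Slc7a11 and Gclm. Gclc likewise had no pair called by r, and one by rho, with Gstm1 (rho = 0.60, adjusted permutation p = 0.0194; r = 0.48, adjusted p = 0.0621). Its r with Gclm, the partner subunit, was 0.26 (adjusted permutation p = 0.377; rho = 0.16). Keap1 ran against Nqo1 (r = -0.53, adjusted permutation p = 0.031; rho = -0.57, adjusted p = 0.0251) and Hmox1 (r = -0.55, adjusted p = 0.0268; rho = -0.45, adjusted p = 0.098), and with Gstm1 (r = 0.66, adjusted p = 0.00495; rho = 0.47, adjusted p = 0.0918). Without the 2 farthest labels these r were -0.46, -0.42 and 0.35. Without the 129 female label 1(3), the adjusted permutation p of Keap1 with Nqo1 and with Hmox1 was 0.0764 and 0.112. The relation of Keap1 with Gstm1 held within 129 labels (r = 0.88) and not within B6 labels (r = 0.05).

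**Figure D4:**
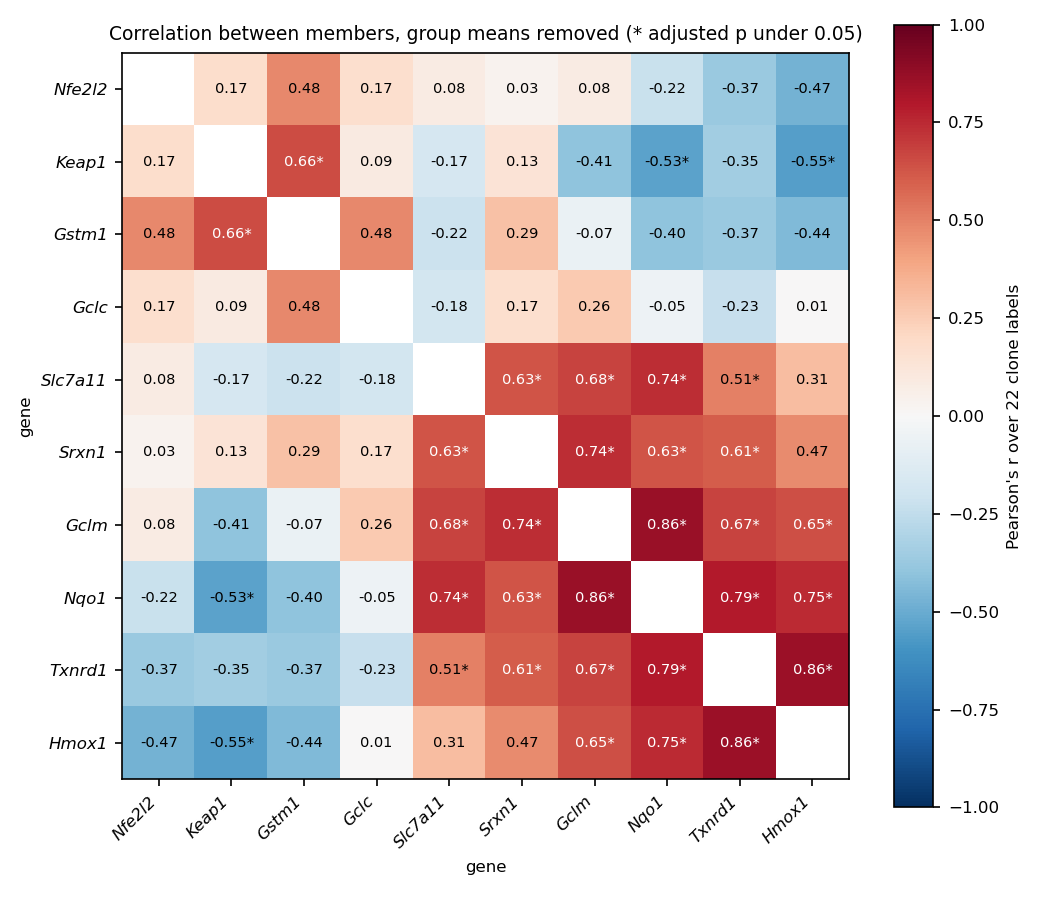
Pearson's r (colour and number) of each pair of members over 22 clone labels after removing group means, with an asterisk where the adjusted permutation p was under 0.05. Slc7a11, Srxn1, Gclm, Nqo1, Txnrd1 and Hmox1 form the red block, and the 2 negative calls are those of Keap1 with Nqo1 and Hmox1.

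**Figure D5:**
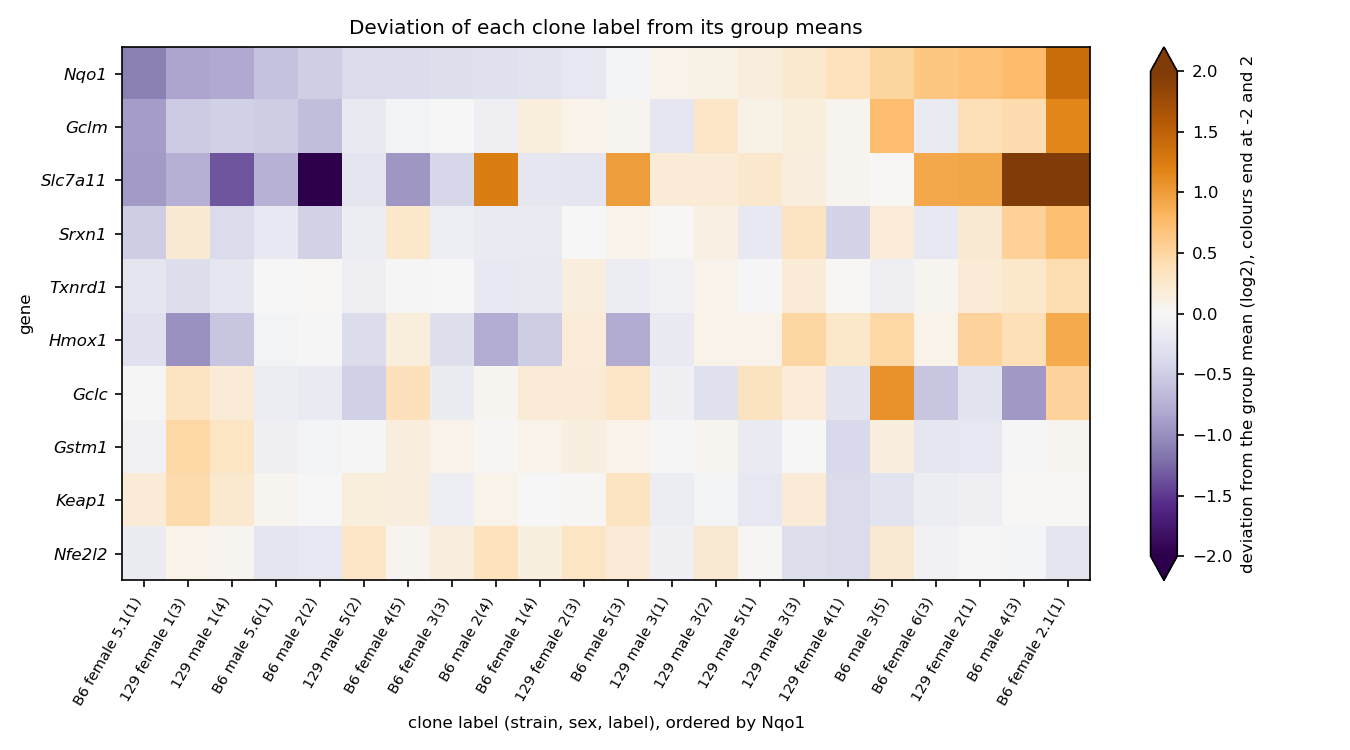
Deviation from the group means (colour, log2, ending at -2 and 2) of each gene (rows) in each of 22 clone labels (columns), ordered by Nqo1. From left to right, Gclm, Slc7a11, Srxn1, Txnrd1 and Hmox1 turn mostly from purple to orange with Nqo1, while Nfe2l2 does not.

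The same deviations moved with cell type markers. Of 80 relations between the 10 members and the summed levels of 8 marker lists, 30 passed (permutation test over 22 clone labels, Benjamini-Hochberg over the 80). The share that would pass for genes at large is not given, so it cannot be told whether this count is particular to the members. Nqo1 was lower where the summed astrocyte markers were higher (r = -0.76, adjusted permutation p = 0.0016; rho = -0.71), and so were Txnrd1 (r = -0.70, adjusted p = 0.00384; rho = -0.75) and Hmox1 (r = -0.67, adjusted p = 0.00693; rho = -0.66). Without the 2 farthest labels these r were -0.75, -0.72 and -0.67. Gstm1, Nfe2l2 and Keap1 ran the other way, with r of 0.78 (adjusted permutation p = 0.0016; rho = 0.73), 0.61 (adjusted p = 0.0168; rho = 0.68) and 0.60 (adjusted p = 0.0168; rho = 0.54), which held at 0.78, 0.55 and 0.56 without the 2 farthest labels. Slc7a11 was higher where the summed fibroblast and meningeal markers were higher (r = 0.61, adjusted permutation p = 0.0116; rho = 0.73; 0.67 without the 2 farthest labels). Relations with other lists were as strong. Nqo1 was lower where the summed oligodendrocyte markers were higher (r = -0.72, adjusted permutation p = 0.0028; rho = -0.79; -0.71 without the 2 farthest labels), and Gstm1 where pericyte and smooth muscle markers were higher (r = -0.71, adjusted p = 0.0016; rho = -0.79; -0.67 without them). Of the 10 members, 7 passed with the ependymal list: Hmox1, Nqo1, Txnrd1 and Gclm had negative r, from -0.70 to -0.51, and Nfe2l2, Gstm1 and Keap1 positive r, from 0.52 to 0.60. Txnrd1 passed with the neuron list (r = 0.62, adjusted permutation p = 0.0135; rho = 0.68; 0.70 without the 2 farthest labels). Bright genes lead these sums: in the neuron list Stmn2 (median 13.42) and Map2 (11.41), with Rbfox3 above background on 0 arrays and Snap25 and Nefl on 3 each. In the oligodendrocyte list they are Olig1 (11.57) and Olig2 (10.63), with Sox10 and Cspg4 above background on 1 array, Mog on 2 and Mbp on 4. Relations with these 2 lists are thus mostly relations with few genes. No member passed with the 10 microglia and macrophage markers, of which Cx3cr1 and Itgam were at background on all arrays. The part of cell makeup in the relations between members was not tested.

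Among genes outside the group, those most like the mean standardised deviation of the 8 target genes, over 37 arrays and 12129 genes, were Cbr3 (r = 0.86), Med10 (r = 0.81), Saysd1 (r = 0.79), Spcs1 (r = 0.79) and Jagn1 (r = 0.78). They are given as a description, and arrays of 1 clone label share their source. Of the genes compared, 5.43% had an r above 0.5. Cbr3 encodes a carbonyl reductase and stands in the drug metabolism list described next. Without the doubted arrays these r were 0.85, 0.79, 0.80, 0.78 and 0.76.

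The wider redox network was read through 9 gene lists with 110 genes, of which 93 were tested by 1 probe set each. With Cdca7l, averaged over groups, 0 of the 93 passed limma's test, and 38 had a positive difference. The 2 genes of smallest p in each list were Btrc and Bach2 for NRF2 control, Gpx4 and Gss for glutathione synthesis, Gstm2 and Gstz1 for the transferases, Glrx2 and Txn2 for thioredoxin, Ces1d and Akr1a1 for drug metabolism, Taldo1 and Mthfd2 for NADPH, Slc40a1 and Slc48a1 for iron, Sod2 and Sod3 for superoxide, and Asns and Cth for ATF4. Their differences ran from -0.83 ± 0.429 for the iron exporter Slc40a1 to 1.25 ± 0.885 for the esterase gene Ces1d, each with limma adjusted p = 0.999. Between sexes 0 of the 93 passed, and the heme transporter Slc48a1 came nearest at -0.40 ± 0.103 (limma adjusted p = 0.0815), followed by the biliverdin reductase Blvra at -0.50 ± 0.151 (adjusted p = 0.111).

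Between strains 26 of the 93 list genes passed, which is 28%, near the 25.2% of all probe sets, with 17 higher and 9 lower in 129 cells. With clone labels as a random replicate block 14 of the 93 passed, all among the 26, beside 16.6% of all probe sets, with 8 higher and 6 lower. Without the doubted arrays the count was 28 (27.6% of all probe sets called), with 24 of the 26 among them: the glutathione list had 3 calls in place of 4 and the NADPH list 1 in place of 2. With no filter on dim probe sets it was 17 (12.1% of all probe sets called), with array weights 48 (47.4%), on Cdca7l arrays alone 5 (5.21%) and on vector arrays alone 2 (8.69%). With single arrays left out the count ran from 15 (20.8%), without the 129 female Cdca7l array 2(1), to 35 (30.2%), without the 129 female Cdca7l array 1(3). Of 11 genes that control NRF2, such as its degradation factor Cul3 and its competitor Bach1, 0 passed, and Bach2 (-0.67 ± 0.275) and the small MAF gene Mafg (0.61 ± 0.253) had the smallest p (limma adjusted p = 0.0723 and 0.0751). With array weights 5 of these 11 passed, and with single arrays left out 0 to 2, the 2 without the B6 male Cdca7l array 4(3); Bach2 passed in 6 and Mafg in 3 such settings. Of 5 superoxide and catalase genes 0 passed, with Pon2 at -0.09 ± 0.121 and Sod2, the mitochondrial superoxide dismutase, at -0.03 ± 0.0998.

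Of 13 genes of glutathione synthesis and recycling, 3 were higher and 1 lower in 129 cells: the glutaredoxin Glrx (1.36 ± 0.315, limma adjusted p = 0.00219), glutathione synthetase Gss (0.63 ± 0.227) and the transporter Abcc4 (0.62 ± 0.231), against the oxoprolinase Oplah (-1.32 ± 0.397, adjusted p = 0.0153). Glrx and Oplah passed with the random block as well, and Gss and Abcc4 did not. Of 11 thioredoxin and peroxiredoxin genes, Prdx3, the mitochondrial peroxiredoxin, was lower in 129 cells by -1.11 ± 0.164 (adjusted p = 9.07e-06) and Sesn1 by -0.66 ± 0.173, while Glrx2 (0.42 ± 0.125) and Txn2 (0.38 ± 0.127) were higher. Of these, Txn2 did not pass with the random block.

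Of 15 glutathione transferase genes, 4 were lower and 1 higher in 129 cells. Gsto1, an omega-class transferase, was higher by 0.94 ± 0.292, and Gstt1 (-0.76 ± 0.263) and Mgst2 (-0.64 ± 0.209) were lower. One of the 4 lower calls was Gstm6 (with the random block as well), which was above background on 0 arrays of 129 and on 7 of the 19 B6 arrays. It averaged 2.22 in 129 cells and 2.96 in B6 cells, both under the background level of 3.19, so it was tested only through B6 arrays and no size is given for its difference. The filter that asks for background to be passed on 19 arrays leaves it out. Of 12 genes of quinone, carbonyl and drug metabolism, Akr1b8 (1.86 ± 0.554) and Ptgr1 (1.10 ± 0.403) were higher in 129 cells and Nqo2, a relative of Nqo1 (-0.62 ± 0.144), and Aldh1a1 (-0.70 ± 0.179) were lower. With the random block, Gsto1, Akr1b8, Nqo2 and Aldh1a1 passed, and Gstt1, Mgst2 and Ptgr1 did not.

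Of 7 genes of NADPH production, Mthfd2 (1.37 ± 0.504) and Pgd (0.27 ± 0.0888) were higher in 129 cells, and neither passed with the random block. Of 8 heme and iron genes, Slc48a1 (0.36 ± 0.103) and the transferrin receptor Tfrc (0.68 ± 0.21) were higher, with and without the block. Of 12 targets of ATF4, the amino acid stress factor that also drives Slc7a11, 5 passed and were higher in 129 cells. They included Slc7a5, an amino acid transporter (0.74 ± 0.165, limma adjusted p = 0.00156), Phgdh, the first enzyme of serine synthesis (0.71 ± 0.168, adjusted p = 0.00274), Chac1, which degrades glutathione (1.12 ± 0.386), and Asns (0.64 ± 0.231). The called share of the list was 41.7%, beside 25.2% of all probe sets called and 10.6% called higher. The list's median difference was 0.61, with 10 of 12 positive, beside a median of 0.005 and 50.4% positive over all probe sets tested. With the random block 2 of the 12 passed, Slc7a5 and Phgdh, beside 16.6% of all probe sets, so the list was then not clearly above the general share. On Cdca7l arrays alone 1 of the 12 passed (5.21% of all probe sets called) and on vector arrays alone 0 (8.69%). With single arrays left out the count ran from 2 to 8. The marker values given for the strains apply to these lists too, and the part of cell makeup was not tested.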

How the data were processed

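RNA of 37 cultures was amplified from 10 ng and hybridised to 1 array each, per the labels' protocols. What the authors deposited is a table of log2 expression for 45101 probe sets, made with GCRMA and Partek 6.5 per the submitters' processing notes. No label says if all arrays were normalized jointly. No further scaling was applied here. The precision depends on the number of arrays.

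Probe sets were named through the platform annotation, updated by Entrez ID. Of 45101, 34958 carried 1 gene symbol, 932 several and 9211 none, and those with several symbols named no gene. A probe set was tested if it exceeded the median of the table, 3.19, on at least 4 arrays, which left out 19458, besides 64 controls. A cell-means model of the 8 groups, with 29 residual degrees of freedom, was fitted to all 25579 with limma 3.58.1 in R 4.3.3, and 10 comparisons were read from it, with Benjamini-Hochberg adjustment over all probe sets. Adjusted p-values are from limma unless a permutation test (SciPy 1.17.1, NumPy 2.4.6) is named. The fit and the correlations were tested on simulated data. The labels describe independent isolates, but 15 of 22 clone labels appear with both plasmids. The main fit treats all arrays as independent, so its p-values measure the spread between arrays of a group. For strain and sex it counts arrays of 1 label as separate replicates. The random block on the clone label allows for the correlation within a label, which was 0.409. It does not allow for a relation between labels that share the number before the bracket.

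All 10 members were named, each by every probe set annotated to it alone. From the lists, up to 4 genes with a call and the smallest p were named, or the 2 with the smallest p where there was none. The members and the lists were chosen with earlier results of these data known, and the comparison by plasmid within the strain result, and leaving out each clone label, were added after seeing the data.

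Same-labelled Cdca7l and vector arrays deviated together in B6 females (r of 0.432 to 0.775 over 3 pairs) and in B6 males (0.376 to 0.572 over 4 pairs). In 129 females r ran from 0.061 to 0.716 and in 129 males from -0.0887 to 0.623, over 4 pairs each, so not every pair deviated together there. The main fit used no pairs in either strain, and the block alternatives used all clone labels of both strains. Alternatives covered the variance prior, the filter, quantile normalization, array weights, the clone label as a random or fixed block, the compared groups alone, the doubted arrays and each array left out.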

Additional observations from a re-analysis of the deposited data

Results flagged for a closer look

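In the 80 groups examined (10 genes, 8 groups), 6 values, on 5 arrays, lay far from the rest of their group by Dixon's ratio, where chance flags about 1 in 20 groups. On the 129 female Cdca7l array 1(3), Hmox1 was 11.54, with its other arrays at 13.64 to 13.78, and Txnrd1 was 13.13, with the others at 13.63 to 13.73. The 129 male Cdca7l array 1(4) had Hmox1 at 12.37, below the others at 12.97 to 13.19. Nfe2l2 on the 129 male vector array 3(3) was 12.22, with the others at 13.01 to 13.20. Srxn1 on the B6 female Cdca7l array 4(5) was 13.59, above the others at 12.96 to 12.99. Nqo1 on the B6 female Cdca7l array 6(3) was 11.37, above the others at 10.35 to 10.50.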

How the results depend on the processing

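The count of members called between Cdca7l and vector cells was 0 under every alternative run, including the random and the fixed replicate block on the clone label and each array left out. Between strains, where 4 were called, the count was 11 with array weights (47.4% of all probe sets called), 1 with the random replicate block (16.6%), 1 on Cdca7l arrays alone (5.21%) and 0 on vector arrays alone (8.69%), and with single arrays left out it ran from 1, without the 129 female Cdca7l array 2(1), to 5. Array weights, whose estimate did not converge and which ran from 0.0357 to 10.1, also called 6 members between sexes and 3 for the strain difference between sexes, against 0 each. The causes were not tested; the fits of 1 plasmid hold fewer arrays. Correlations called 16 pairs, 25 over the 37 arrays, where arrays of 1 clone label are not independent, 20 without the doubted arrays, 18 after quantile normalization, and 14 to 17 with single clone labels left out. Of 3420 single-gene values under alternatives, 3400 kept their side of the threshold, 11 passed newly, 9 no longer passed, and none that was called changed sign, while 169 uncalled ones did. The blocks changed no other call of a member's representative probe set, apart from that of Gstm1 between strains. The correlation within a clone label was 0.409. A fixed block cannot be fitted to strain or sex.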
